A study of Mus musculus with 3 samples.

Results

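The Sox genes of the SoxB, SoxC and SoxD groups were compared between *tuft* and wild-type mouse embryos at the stage of cranial neural tube closure. They were taken by gene symbol and were *Sox1*, *Sox2*, *Sox3* and *Sox21* (SoxB), *Sox4*, *Sox11* and *Sox12* (SoxC) and *Sox5* and *Sox6* (SoxD), 9 of the 24062 genes in the count tables. The tissue was the rostrum, taken from the front of the head, and its RNA was sequenced at E9 (18-22 somites) from wild-type embryos of the 3H1 Balb strain and from *tuft* embryos with a neural tube defect. The *tuft* embryos were homozygous for a spontaneous nonsense mutation that truncates the catalytic domain of TET1, an enzyme that oxidises methylated cytosine, and the wild type was the strain in which that mutation arose. Each sample is described as pooled RNA of 3 embryos with a RIN of at least 9. The pooled *tuft* embryos all showed the defect, so the genotype and the defect cannot be told apart. The records describe 2 samples as *tuft* and 1 as wild type. Only 1 *tuft* column was analysed, and its name does not say whether it holds either or both of the *tuft* samples. The number of embryos behind that column is therefore not known. Each genotype's column is called a library in what follows.

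Sox proteins are transcription factors that bind DNA through a high mobility group domain and act with partner factors. The SoxB1 proteins SOX1, SOX2 and SOX3 mark the neural plate and hold its cells as progenitors, whereas the SoxB2 protein SOX21 counteracts them and favours differentiation. The SoxC proteins SOX4, SOX11 and SOX12 act in cells that are leaving the progenitor state and in neurons, and SOX4 and SOX11 also act in mesenchyme and neural crest derivatives. The SoxD proteins SOX5 and SOX6 lack an activation domain of their own, bind DNA as dimers, and act with SOX9 in cartilage and in the timing of neuron and glia formation.

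The wild-type library held 14251942 counts on genes, 2.22 times the 6433067 of the *tuft* library. Counts on genes were 37.3% of all entries in wild type and 27.4% in *tuft*, with the summary lines for unassigned reads included. The ratio of 2.22 is thus not one of sequencing depth alone. A gene had at least 1 count for 16914 symbols in wild type and for 11795 in *tuft*. There was 1 count column per genotype, so no replicate could be compared and no p-value is given. Every interval given is an exact 95% binomial (Clopper-Pearson) interval that covers counting error of reads only and says nothing of the spread between embryos. Reads carried no molecular identifiers, so copies of 1 molecule count as separate reads and the intervals can be too narrow. Levels are given as CPM, counts per 1000000 counts on genes, after TMM scaling, which raised *tuft* values relative to wild type because the TMM factor of *tuft* was 0.761 of that of wild type. *Tet1* itself had 32 *tuft* and 435 wild-type counts, a fold of 0.214 (0.145 to 0.307).

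The transcription start regions of 6 of these genes are shown because they set the SoxC pair that moved together, *Sox4* and *Sox11*, beside the SoxC gene that did not, *Sox12*, the SoxB1 pair *Sox1* and *Sox2* that parted, and the gene that was lower in *tuft*, *Sox5*. Each is the 250 bases before the annotated start, written 5′ to 3′ on the strand of the gene, from RefSeq on GRCm38.p6, with every CG dinucleotide, the main site of cytosine methylation, in capitals. *Sox4* lies on the minus strand (chr13:28953700-28953949), *Sox11* on the minus strand (chr12:27342719-27342968), *Sox12* on the minus strand (chr2:152398047-152398296), *Sox1* on the plus strand (chr8:12395269-12395518), *Sox2* on the plus strand (chr3:34649745-34649994) and *Sox5* on the minus strand (chr6:143947107-143947356). The only *Sox5* start listed is an internal one, since the gene spans chr6:143828425-144782287. Its window thus lies inside the gene and does not describe the region before its outermost start.
Sox4: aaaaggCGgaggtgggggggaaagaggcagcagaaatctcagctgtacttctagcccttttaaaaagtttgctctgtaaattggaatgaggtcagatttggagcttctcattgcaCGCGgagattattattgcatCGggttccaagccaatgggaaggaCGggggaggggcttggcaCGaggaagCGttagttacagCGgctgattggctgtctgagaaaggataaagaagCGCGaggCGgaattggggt
Sox11: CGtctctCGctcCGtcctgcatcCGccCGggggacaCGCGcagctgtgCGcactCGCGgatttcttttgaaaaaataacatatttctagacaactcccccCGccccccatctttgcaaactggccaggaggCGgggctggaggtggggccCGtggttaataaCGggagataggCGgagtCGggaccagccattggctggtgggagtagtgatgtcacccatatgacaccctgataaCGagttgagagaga
Sox12: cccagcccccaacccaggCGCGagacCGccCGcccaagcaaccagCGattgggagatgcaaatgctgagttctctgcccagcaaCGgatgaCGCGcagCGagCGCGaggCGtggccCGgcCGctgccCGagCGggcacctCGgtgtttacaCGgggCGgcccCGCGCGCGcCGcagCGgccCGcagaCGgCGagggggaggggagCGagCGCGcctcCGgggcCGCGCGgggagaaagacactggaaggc
Sox1: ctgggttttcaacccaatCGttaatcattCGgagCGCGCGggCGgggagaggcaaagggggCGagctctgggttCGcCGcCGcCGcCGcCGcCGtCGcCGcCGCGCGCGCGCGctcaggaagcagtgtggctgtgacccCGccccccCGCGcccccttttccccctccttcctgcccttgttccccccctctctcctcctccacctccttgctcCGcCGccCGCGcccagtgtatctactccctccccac
Sox2: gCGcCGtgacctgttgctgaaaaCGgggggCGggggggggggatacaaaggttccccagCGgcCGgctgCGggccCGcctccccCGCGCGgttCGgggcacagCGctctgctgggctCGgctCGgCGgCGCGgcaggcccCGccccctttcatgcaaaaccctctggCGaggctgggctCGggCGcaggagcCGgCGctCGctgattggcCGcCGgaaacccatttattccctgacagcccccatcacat
Sox5: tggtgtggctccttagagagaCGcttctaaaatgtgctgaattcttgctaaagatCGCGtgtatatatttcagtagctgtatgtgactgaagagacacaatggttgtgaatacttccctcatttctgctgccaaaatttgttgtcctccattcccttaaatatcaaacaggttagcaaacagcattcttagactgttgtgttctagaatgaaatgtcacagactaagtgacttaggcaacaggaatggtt

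Over the 32851 RefSeq promoters of that length the median was 6 CG dinucleotides. *Sox12* held 35 (percentile 97.0), *Sox1* 29 (93.2), *Sox2* 27 (91.4), *Sox11* 17 (76.5), *Sox21* 17, *Sox4* 11 (64.4) and *Sox5*, at its internal start, 3 (29.0). *Sox12* and *Sox2*, within 2-fold of wild type as given below, stood near *Sox1*, and *Sox4* and *Sox11* held fewer. The 6 windows shown were chosen by the fold changes of their genes, and a relation of CG content to fold change was not tested. The letters CCAAT, searched on both strands, were present in 33.9% of promoters and occurred 4 times before *Sox4* and once each before *Sox11*, *Sox12*, *Sox1* and *Sox2*. The octamer ATGCAAAT (ATTTGCAT on the other strand), the recognition sequence of POU factors, was present in 1.60% of promoters and occurred in the *Sox12* window. The letters ACAATG, searched on both strands, a core recognised by Sox proteins, were present in 10.7% of promoters and occurred in the *Sox5* window, and TATAAA, also on both strands and present in 12.4%, occurred in none of the 6 windows. A match of letters is a description of the window only. Of the 9 genes, 8 had an entry in the promoter table, with 13 starts, 6 of them for *Sox6*, and *Sox3* had none.

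All 9 genes were detected in both libraries. A gene was called higher or lower when its fold change was at least 2 and its counting interval left out 1. Called higher in *tuft* were 3 of the 9, *Sox1*, *Sox4* and *Sox11*, beside 21.2% of the 13979 genes whose counts in the 2 libraries summed to 10 or more, and called lower was 1 of the 9, *Sox5*, beside 40.0% of those genes. At 4-fold, 2 of the 9 were called higher, *Sox4* and *Sox11*, beside 9.20% of all genes, and *Sox5* was again the 1 called lower, beside 29.5%. The remaining 5 genes, *Sox2*, *Sox3*, *Sox6*, *Sox12* and *Sox21*, lay within 2-fold of wild type. With 9 genes, counts of 3 and 1 are within a few genes of what the shares over all genes would give, so the counts by themselves do not set the Sox genes apart.

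The median log2 fold change of the 9 genes was 0.30 (quartiles -0.06 and 1.66), whereas the median over all genes tested was -0.55 (quartiles -2.92 and 0.78) and over the 10747 genes with 100 counts or more, the range in which all 9 genes fall, -0.15 (quartiles -1.48 and 0.95). Scaling by library totals in place of TMM moved the median of all genes to -0.95 and that of the 9 to -0.089, and the share of all calls that were higher from 34.7% to 24.6%. The calls of the Sox genes were the same under both scalings.

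**Figure D1:**
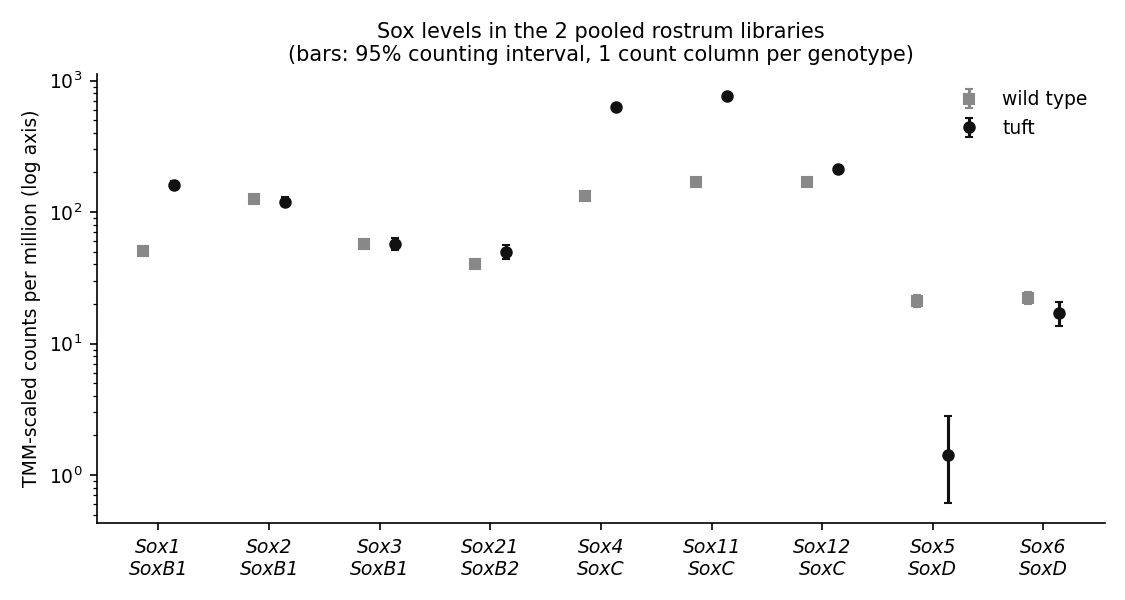
TMM-scaled CPM (log axis) of the 9 Sox genes in the wild-type library (grey squares) and the *tuft* library (black circles), with 95% counting intervals and no replicates. *Sox1*, *Sox4* and *Sox11* are higher in *tuft*, *Sox5* falls to 1.43, and the other 5 pairs lie within 2-fold of each other.

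**Figure D2:**
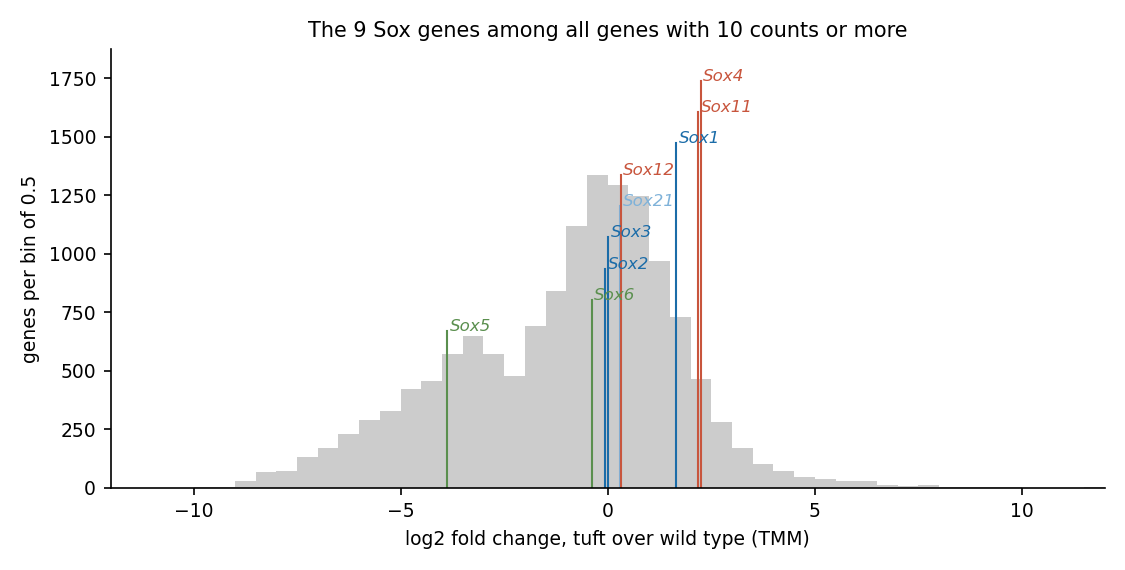
Number of genes (13979 in all) per bin of 0.5 in log2 fold change of *tuft* over wild type, with a vertical line for each Sox gene whose height has no meaning. *Sox5*, at -3.88, lies in a lower hump of the distribution and *Sox4*, at 2.24, on its upper shoulder.

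Among the SoxB1 genes, *Sox1* alone was called higher in *tuft*. *Sox1*, whose protein appears in the neural plate after SOX2 and SOX3, had 902 *tuft* and 832 wild-type counts, or 160.8 and 50.9 scaled CPM. The *tuft* library held fewer counts on genes in all. That was a 3.16-fold difference (2.87 to 3.47), against 285.7 counts that the wild-type level would have given in *tuft*. *Sox2*, required for neural progenitors and for the eye and pituitary, had 675 *tuft* and 2052 wild-type counts. Its fold was 0.958 (0.877 to 1.05) at levels of 120.3 and 125.6 scaled CPM. After TMM scaling that interval held 1, whereas by library totals the fold of *Sox2* was 0.729 (0.667 to 0.795), so its place relative to wild type depends on the scaling. *Sox3*, the X-linked SoxB1 gene, had 321 and 926 counts, levels of 57.2 and 56.7 scaled CPM and a fold of 1.01 (0.886 to 1.15). By library totals the log2 fold change of *Sox3* turned from 0.01 to -0.38, while that of *Sox1* was 1.26.

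The ratio of 2 genes within a library does not depend on how the libraries are scaled. *Sox1* was at 0.406 counts per *Sox2* count in wild type and at 1.34 in *tuft*, a 3.30-fold shift (2.89 to 3.75). Against *Sox3* the shift of *Sox1* was 3.13-fold (2.66 to 3.68). The proportion of *Sox3* to *Sox2* was 0.451 in wild type and 0.476 in *tuft*, and its shift of 1.05 (0.900 to 1.23) was within counting error. In terms of the summed SoxB1 counts, *Sox2* was the largest part in wild type with 53.9% (52.3 to 55.5), ahead of *Sox3* with 24.3% and *Sox1* with 21.8% (20.5 to 23.2). In *tuft*, *Sox1* made up 47.5% (45.3 to 49.8), *Sox2* 35.6% and *Sox3* 16.9%. Summed over SoxB1, there were 1898 *tuft* and 3810 wild-type counts, a fold of 1.45 (1.37 to 1.53).

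*Sox21*, the SoxB2 gene, had 280 *tuft* and 660 wild-type counts. Its level was 49.9 against 40.4 scaled CPM, a fold of 1.24 (1.07 to 1.42), and its log2 fold change turned from 0.30 to -0.089 by library totals. *Sox14*, the other SoxB2 gene, had no count in *tuft* and 8 in wild type, below the minimum. The ratio of summed SoxB1 counts to *Sox21* was 5.77 in wild type and 6.78 in *tuft*, a shift of 1.17 (1.01 to 1.37).

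The highest folds among the 9 genes were those of *Sox4* and *Sox11*, both SoxC genes, and both were more than 4-fold higher in *tuft*. *Sox4* had 3532 *tuft* and 2171 wild-type counts, or 629.5 and 132.9 scaled CPM. Its fold was 4.74 (4.49 to 5.0). *Sox11* had 4306 *tuft* and 2765 wild-type counts, or 767.4 and 169.2 scaled CPM, a fold of 4.54 (4.32 to 4.76). Both genes are needed for the survival and maturation of neural and mesenchymal progenitors, and they are partly redundant with each other. *Sox12*, the weakest activator of the SoxC group, had 1186 *tuft* and 2783 wild-type counts, levels of 211.4 and 170.3 scaled CPM and a fold of 1.24 (1.16 to 1.33), which fell short of 2-fold and turned from a log2 value of 0.31 to -0.083 by library totals.

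*Sox4* and *Sox11* were higher by nearly the same factor. The proportion of *Sox4* to *Sox11* was 0.785 in wild type and 0.820 in *tuft*, a shift of 1.05 with an interval of 0.972 to 1.12. *Sox12* parted from both, with a shift of 3.82 (3.50 to 4.17) for *Sox4* over *Sox12* and of 3.65 (3.36 to 3.98) for *Sox11* over *Sox12*. In wild type the SoxC counts were shared almost evenly, 36.1% *Sox12*, 35.8% *Sox11* and 28.1% *Sox4*. In *tuft*, *Sox11* made up 47.7% (46.7 to 48.8), *Sox4* 39.1% (38.1 to 40.2) and *Sox12* 13.1% (12.5 to 13.9). Summed over SoxC, there were 9024 *tuft* and 7719 wild-type counts, a fold of 3.40 (3.30 to 3.51).

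*Sox5* was the member with the lowest fold change. It had 8 *tuft* and 343 wild-type counts, where the wild-type level would have given 117.8 in *tuft*, and its level was 1.43 against 21.0 scaled CPM, 14.7-fold lower (7.39 to 34.4). *Sox6*, its closest relative and dimer partner, had 95 *tuft* and 362 wild-type counts, or 16.9 and 22.2 scaled CPM, a fold of 0.764 (0.603 to 0.960). By library totals the fold of *Sox6* was 0.581 (0.459 to 0.731), nearer to 2-fold lower but not called. The proportion of *Sox6* to *Sox5* was 1.06 in wild type and 11.9 in *tuft*, a shift of 11.3 (5.36 to 27.2). Of the counts of *Sox5* and *Sox6* together, *Sox5* was 48.7% (44.9 to 52.4) in wild type and 7.77% (3.41 to 14.7) in *tuft*. *Sox13*, also a SoxD gene but not among the 9, went the other way with 2672 *tuft* and 1297 wild-type counts, a fold of 6.0 (5.61 to 6.42). With *Sox13* counted, *Sox5* went from 17.1% (15.5 to 18.9) to 0.288% (0.125 to 0.567) of SoxD counts and *Sox6* from 18.1% to 3.42%. The summed counts of *Sox5* and *Sox6* had a fold of 0.425 (0.343 to 0.524), and those of all SoxD genes a fold of 4.04 (3.81 to 4.28).

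**Figure D3:**
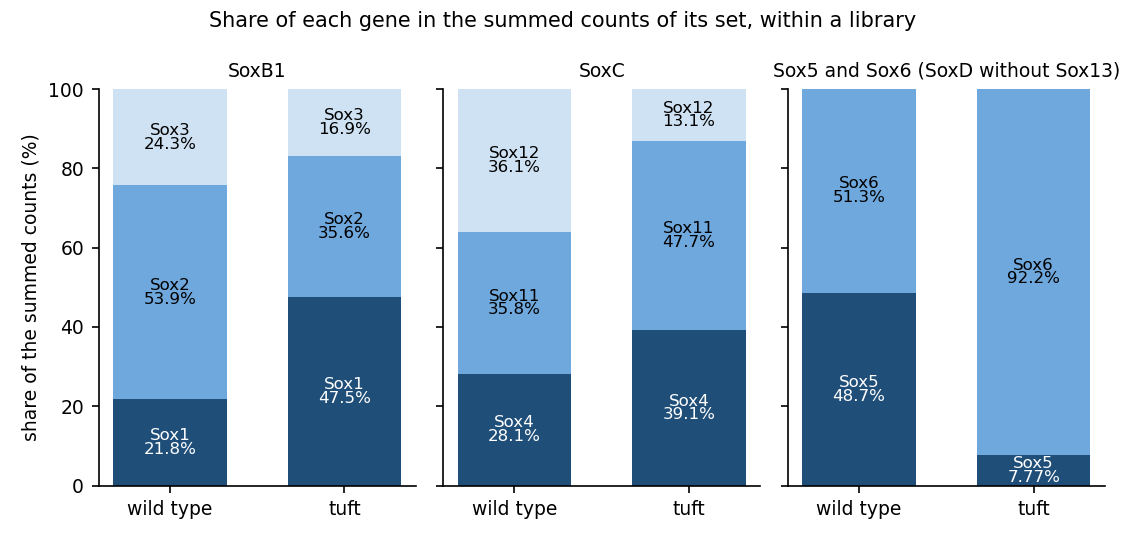
Share (%) of each gene in the summed SoxB1 counts, the summed SoxC counts and the summed counts of *Sox5* and *Sox6* (SoxD without *Sox13*), for the wild-type and the *tuft* library, which does not depend on scaling between libraries. *Sox1* goes from 21.8% to 47.5% of SoxB1 counts, *Sox12* from 36.1% to 13.1% of SoxC counts and *Sox5* from 48.7% to 7.77% of the counts of *Sox5* and *Sox6*.

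Between groups, SoxC counts stood at 2.03 per SoxB1 count in wild type and at 4.75 in *tuft*, a shift of 2.35 (2.2 to 2.50). SoxC over *Sox5* and *Sox6* went from 11.0 to 87.6, a shift of 8.0 (6.48 to 9.96), and SoxB1 over *Sox5* and *Sox6* from 5.40 to 18.4, a shift of 3.41 (2.75 to 4.27). With *Sox13* added to the SoxD counts both shifts reversed, to 0.843 (0.790 to 0.901) for SoxC and 0.359 (0.332 to 0.390) for SoxB1. *Sox4* and *Sox11* together were the greater part of the 11305 Sox counts in *tuft*, with 31.2% and 38.1%. In wild type they were 16.8% and 21.4% of 12894. Of the 36 pairs that the 9 genes form, 4 had a ratio shift whose interval held 1, namely *Sox3* and *Sox2*, *Sox2* and *Sox6*, *Sox4* and *Sox11*, and *Sox12* and *Sox21*. In 23 pairs (63.9%) the 2 genes moved apart by 2-fold or more and in 15 (41.7%) by 4-fold or more. Over all pairs of the 10747 genes with 100 counts or more, those shares were 71.5% and 48.3%, so the Sox genes did not part from each other more often than genes at large.

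**Figure D4:**
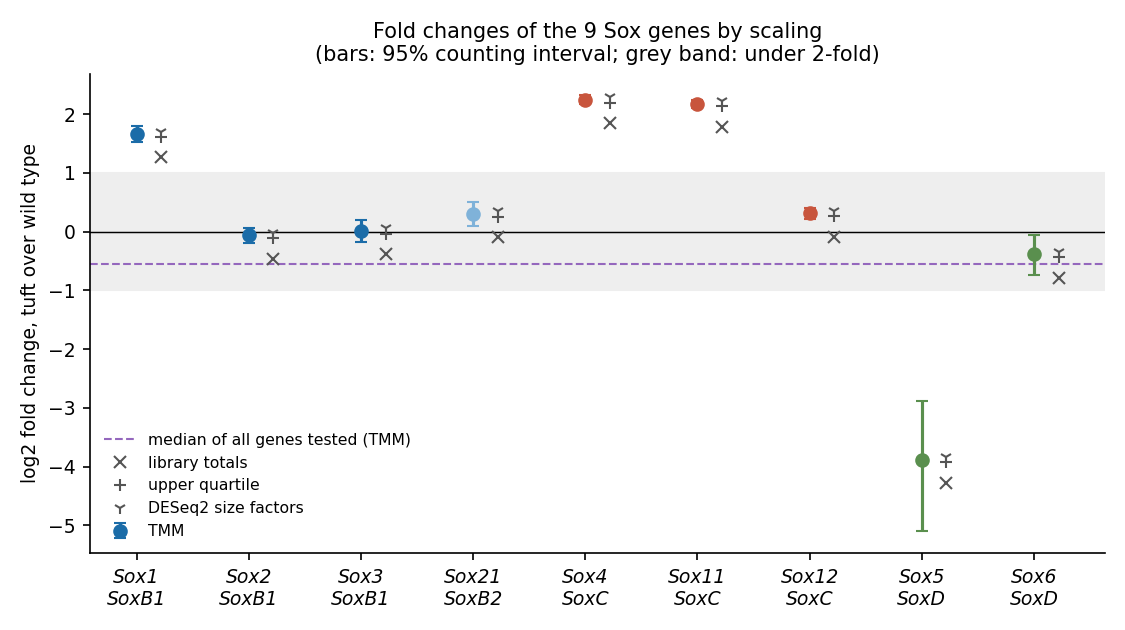
Log2 fold change of *tuft* over wild type for each Sox gene after TMM scaling, with 95% counting intervals, beside the values from 3 other scalings (library totals, upper quartile, DESeq2 size factors) and the median of all genes tested (dashed). *Sox1*, *Sox4* and *Sox11* lie above the 2-fold band and *Sox5* below it under every scaling shown, whereas *Sox12* and *Sox21* change sign by library totals, and *Sox3* by library totals and by the upper quartile.

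Levels of different genes were compared per kilobase, with CPM of library totals divided by the span of the gene on GRCm38, or by exon length of the older NCBIM37 build for *Sox5* and *Sox6*, whose spans are mostly introns. In wild type the order was *Sox2* (58.4 CPM per kilobase), *Sox12* (44.0), *Sox4* (31.9), *Sox3* (31.5), *Sox11* (23.0), *Sox1* (14.5), *Sox21* (12.2), *Sox6* (2.87) and *Sox5* (1.67). The intervals of *Sox4* and *Sox3* overlapped in wild type, and those of all other neighbours were separate at these lengths. In *tuft* the order was *Sox4* (114.8), *Sox11* (79.2), *Sox2* (42.5), *Sox12* (41.6), *Sox1* (34.7), *Sox3* (24.2), *Sox21* (11.5), *Sox6* (1.67) and *Sox5* (0.0865), and there the intervals of *Sox2* and *Sox12* overlapped. *Sox2* thus led in wild type and *Sox4* in *tuft*. The places of *Sox5*, *Sox6* and *Sox11* depend on the gene model. By the length of their longest transcript, an alternative added after seeing the data, wild-type *Sox5* was at 3.32 and *Sox6* at 3.09, with overlapping intervals and in the other order. *Sox11* moves most, because its annotated length is 8451 bases on GRCm38 and 2013 on NCBIM37, which would give 332.5 in *tuft* and 96.4 in wild type, ahead of the other members in both libraries. The gene models behind the counts are not given in the sources used here.

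On GRCm38.p6, *Sox1* lies at chr8:12395519-12399555, *Sox2* at chr3:34649995-34652461, *Sox3* at chrX:60891366-60893430 and *Sox21* at chr14:118233233-118237030. The SoxC genes lie at chr13:28948919-28953699 (*Sox4*), chr12:27334268-27342718 (*Sox11*) and chr2:152393611-152398046 (*Sox12*), and the SoxD genes at chr6:143828425-144782287 (*Sox5*) and chr7:115470872-116040776 (*Sox6*). No pair of the 9 shares a chromosome. *Sox2*, *Sox3*, *Sox4*, *Sox11* and *Sox21* are single-exon genes in the NCBIM37 models and *Sox12* has 2 exons, while *Sox5* has 15 and *Sox6* has 17. Among 330 tested genes with 1 exon, 30.9% were called higher and 34.2% lower, against 20.1% and 40.1% of 12261 genes with more exons, and the part of gene structure in the values of the Sox genes was not tested. Stretches of 50 bases shared with other protein-coding transcripts were absent from the 7 other members in those models and numbered 6 of 7194 in *Sox5*, and the longest run shared between 2 members was 48 bases, between *Sox4* and *Sox11*.

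Long noncoding RNAs overlap *Sox1*, *Sox2*, *Sox4*, *Sox5*, *Sox6* and *Sox21* in the RefSeq annotation, and no such RNA overlaps *Sox3*, *Sox11* or *Sox12*. Whether strand was used in counting is not given in the sources used here. Reads of overlapping exons could thus be shared for those 6 genes, or dropped where the RNA was also counted. Under their RefSeq symbols only *Sox2ot* and *Sox5os3* had a row in the counts. *Sox2ot*, the noncoding gene within which *Sox2* lies, had 50 counts in wild type and none in *tuft*, where 17.2 counts would have matched the wild-type level. It was at least 5.72-fold lower against a floor of 3 counts, which leaves out the counting error of wild type, while the fold of *Sox2* was 0.958 by TMM and 0.729 by library totals. The RefSeq neighbour *Sox5os3* had no count in either library.

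Of the 11 other Sox genes, 7 had enough counts, of which 4 were called higher and 2 lower, beside 21.2% and 40.0% of all genes, with a median log2 fold change of 1.59. The SoxE genes of neural crest and cartilage were all higher in *tuft*. *Sox10*, a regulator of neural crest cells, had 1277 *tuft* and 334 wild-type counts (11.1-fold, 9.86 to 12.6), *Sox9*, a regulator of cartilage and crest, 924 and 553 (4.87-fold, 4.37 to 5.42), and *Sox8* 233 and 226 (3.00-fold, 2.49 to 3.62). The SoxF genes of endothelium were lower in 2 of 3 cases, *Sox7* with 8 and 125 counts (fold 0.186, 0.0787 to 0.379) and *Sox18* with 22 and 263 (fold 0.244, 0.150 to 0.377), while *Sox17* had 38 and 80 (fold 1.38, 0.914 to 2.06). *Sox30* had 1 count in wild type, and *Sry* and *Sox15* had none in either library.

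Of the POU, PAX and other factors that act beside Sox proteins, 3 of 8 were called lower and 1 higher, near the shares of 40.0% and 21.2% over all genes, with a median log2 fold change of -0.91. *Pou3f2*, a POU factor of neural progenitors, was the 1 called higher, with 422 *tuft* and 130 wild-type counts (9.45-fold, 7.75 to 11.6), and *Pou3f1* had 66 and 98 (1.96-fold, 1.41 to 2.71). *Pou3f3* was lower with 10 and 150 counts (fold 0.194, 0.0912 to 0.367). *Chd7*, a chromatin remodeler that works with SOX2, was lower with 156 and 3209 counts (fold 0.142, 0.120 to 0.166).

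Of the genes of neural progenitors, 4 of 12 were called higher and 4 lower, beside 21.2% and 40.0% of all genes, with a median log2 fold change of 0.18, which was -0.21 by library totals. *Six3*, a forebrain and eye field factor, was higher with 1361 and 958 counts (4.14-fold, 3.81 to 4.50), and *Hes5*, a Notch target of progenitors, with 415 and 331 (3.65-fold, 3.15 to 4.23). *Rax*, of the eye field, was lower with 2 and 389 counts (fold 0.0150, 0.00181 to 0.0545), and *Fabp7*, of radial glia, had 100 counts in wild type and none in *tuft*, at least 11.4-fold lower against the same floor.

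A further list held neuron genes and other genes linked to SoxC proteins, among them *Tead2*, *Neurog1* and *Neurog2*. Of the 12 with enough counts, 2 were called higher and 4 lower, near the shares of 21.2% and 40.0% over all genes. Their median log2 fold change was 0.03, which was -0.36 by library totals and -0.02 by the upper quartile. *Elavl3*, an RNA-binding protein of neurons, was higher with 92 and 48 counts (5.58-fold, 3.90 to 8.09), and *Stmn2* had 94 and 215 (1.27-fold, 0.988 to 1.63). *Stmn1*, a regulator of microtubules, had 3 *tuft* and 2064 wild-type counts (fold 0.00423, 0.000872 to 0.0124), and *Map2*, a microtubule protein of dendrites, had 34 and 230 (fold 0.431, 0.291 to 0.619).

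Of *Sox9* and the cartilage genes that SOX9 activates with SoxD proteins, 4 of 6 were called higher and 1 lower, beside 21.2% and 40.0% of all genes, with a median log2 fold change of 1.53. By library totals it was 3 higher and 2 lower, since *Col2a1* was then at 1.96-fold and *Col11a2* at 0.431. *Col9a1* had 461 *tuft* and 254 wild-type counts (5.29-fold, 4.53 to 6.18), *Hapln1* 759 and 681 (3.25-fold, 2.92 to 3.6) and *Col2a1* 2635 and 2981 (2.57-fold, 2.44 to 2.71). *Sox9*, already counted among the other Sox genes, was the other gene called higher. *Acan* was the 1 called lower. *Matn1* and *Comp* had at most 1 count. The lists were chosen with earlier results of these data known, and no list was tested against other genes.

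**Figure D5:**
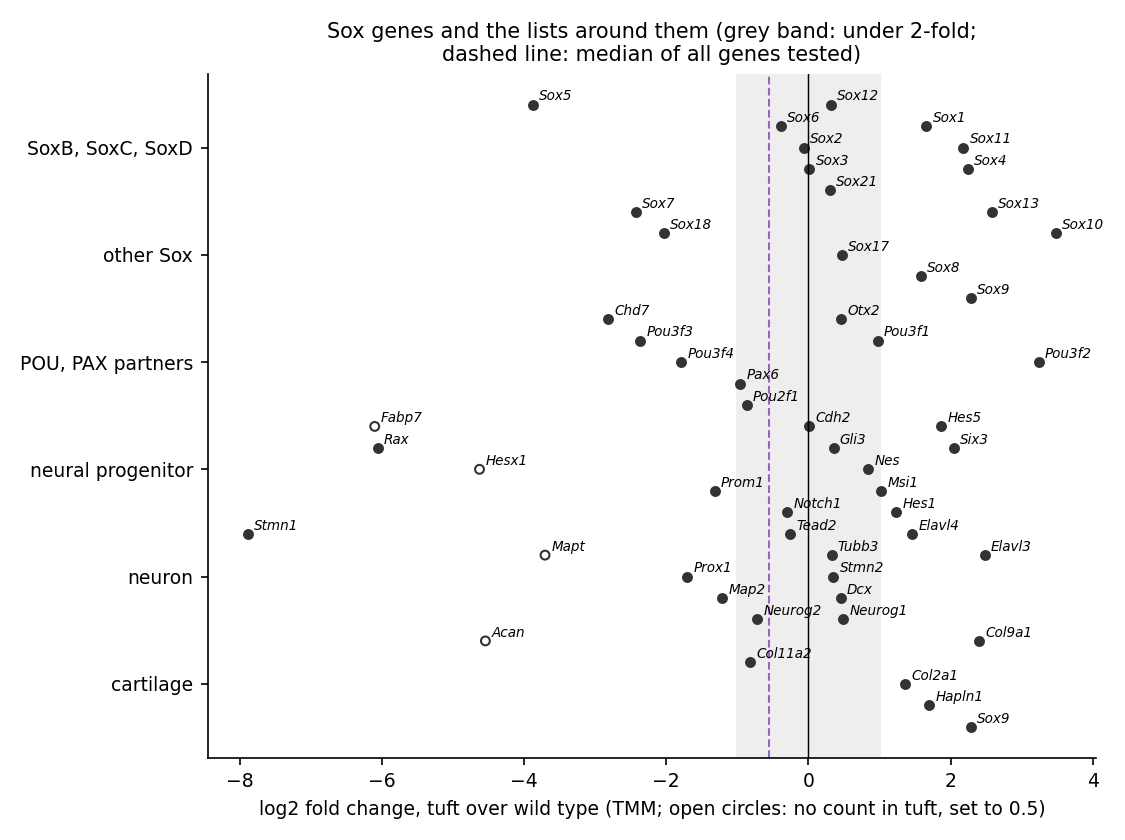
Log2 fold change of *tuft* over wild type (TMM) for the 9 Sox genes and the tested genes of 5 lists, with the band under 2-fold in grey, the median of all genes tested (-0.55) dashed and genes with no count in *tuft* as open circles. SoxE genes and *Sox13* lie with *Sox4* and *Sox11* on the right, *Sox5* with *Sox7* and *Sox18* on the left, and the neuron genes spread on both sides of 0.

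A rostrum holds neural tissue, surface ectoderm, crest, mesenchyme and vessels, and in bulk RNA fewer cells of a type and less RNA per cell cannot be told apart. Markers of other cell types also differed between the libraries, and the part of cell make-up in the values of the Sox genes was not tested. Of the neural crest markers, 2 of 7 were higher and 2 lower, beside 21.2% and 40.0% of all genes, and *Foxd3* was at 0 in *tuft*. Their summed levels were 431.5 scaled CPM in *tuft* and 227.8 in wild type, of which *Sox10* alone gave 227.6 and 20.4. Of the head mesenchyme markers, 2 of 8 were higher and 2 lower (398.7 and 311.9, or 347.7 and 357.6 CPM without TMM scaling), and of the surface ectoderm markers 2 of 8 were higher and 1 lower (926.5 and 549.1). The crest, mesenchyme and ectoderm lists thus held genes in both directions. Endothelial markers were lower in 5 of 8 cases and higher in 2 (144.0 and 253.0), with *Pecam1* at 0 in *tuft*. Yolk sac markers were lower in 6 of 8 cases and higher in 1 (250.4 and 1644.0), with *Apoa4* and *Apoc2* at 0 in *tuft*. Erythroid markers were higher in 3 of 7 cases and lower in 3 (40728.2 and 2796.4), with *Klf1* and *Gata1* at 0 in *tuft*. Of those sums, *Hba-x* gave 21165.2 and 1234.6 and *Hbb-y* 18521.0 and 571.3. Markers of vessels and yolk sac were thus mostly lower in *tuft*, while the summed erythroid level, mostly that of *Hba-x* and *Hbb-y*, was higher there. In lists this short, the numbers called were within a few genes of the shares over all genes. The numbers by themselves therefore do not set a cell type apart. Cardiac markers were near 0 in both libraries (0.356 and 6.30), with 5 of 6 at 0 in *tuft* and 2 of the 3 tested called lower. For the tissue itself, the forebrain and midbrain factor *Otx2* was present in both libraries with 990 *tuft* and 2104 wild-type counts, as was *Six3*.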

How the data were processed

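Poly-A RNA of E9 rostrums was sequenced, and 1 count column each for wild type and *tuft* was analysed. The authors deposited raw counts per gene symbol. Ion Proton reads, single-end, had been trimmed with PRINSEQ, mapped to mm10 with TopHat2 and assigned to genes with htseq-count. The submitters' processing notes list TopHat2 2.0.14, Bowtie2 2.2.5, SAMtools 0.1.18 and Cufflinks 2.1.1, and the version of HTSeq, its strand setting and the gene models are not given in the sources used here. The 5 summary lines of each table were left out of totals. They held 59.2% of entries in *tuft* and 51.4% in wild type as not unique, 12.8% and 10.8% on no gene and 0.667% and 0.526% as ambiguous. Since reads that map to several places were not assigned, multicopy sequence is counted less.

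From these counts, folds of *tuft* over wild type were computed with TMM factors (edgeR 4.0.16, R 4.3.3), the scaling the study used, and exact Clopper-Pearson intervals (Python 3.11.15, scipy 1.17.1), over genes whose counts in the 2 libraries summed to 10 or more. A count of 0 was set to 0.5 for a point estimate. No test over samples was possible with single libraries (edgeR's quasi-likelihood fit would have no residual degrees of freedom), and the NOISeq-sim call of the study was not used because it rests on simulated libraries. Shifts of a ratio between libraries have exact conditional intervals. Alternatives were library totals, the upper quartile, DESeq2 1.42.0 size factors, other count minimums and other folds.

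The 9 Sox genes, the lists and the markers were chosen with earlier results of these data known. The text names the 9 genes, every other Sox gene, *Tet1*, and from each further list the 2 highest and 2 lowest folds among genes with 100 counts or more. *Acan*, *Matn1*, *Comp*, *Sox5os3*, *Otx2*, *Col11a2* and the markers at 0 were named after their values were seen. Promoters and positions came from RefSeq (GRCm38.p6) and exon lengths from NCBIM37, on which 90.07% of tested genes had a protein-coding transcript.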

Additional observations from a re-analysis of the deposited data

How the results depend on the processing

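With 1 count column per genotype, the limits are those of a single comparison, and no value separates genotype from the pool of embryos, the library or its depth. The calls of *Sox1*, *Sox4* and *Sox11* as higher and *Sox5* as lower were the same by library totals, by the upper quartile, by DESeq2 size factors, without a count minimum, with a minimum of 100 counts, at 1.5-fold and with the whole interval beyond 2-fold. At 4-fold, *Sox1* was lost and 2 genes were higher and 1 lower. Over all genes, 4-fold gave 1286 higher in place of 2966 and a minimum of 100 counts gave 3439 lower in place of 5587, both because the rule is stricter. By library totals the median log2 fold change of the 9 genes turned to -0.089, *Sox3* to -0.38, *Sox12* to -0.083 and *Sox21* to -0.089, and by the upper quartile *Sox3* turned to -0.035, because the scaling shifts every gene by the same amount. Adding *Sox13* to the SoxD counts, a choice made after seeing the data, reversed the shifts of SoxC and SoxB1 over SoxD, from 8.0 to 0.843 and from 3.41 to 0.359. The median was 0.26 by the upper quartile and 0.35 by DESeq2 size factors. Setting counts of 0 to 3 changed no median given for a list except those of the cardiac markers, from -3.85 to -1.27, and of the overlapping transcripts, where *Sox2ot* alone had a row, from -5.10 to -2.52. In the *tuft* library a count of 0 allows up to 0.466 CPM, and in wild type 0.211. By library totals the lists also gave 5 lower in place of 3 among partner factors, 2 higher in place of 4 among progenitor genes, 3 higher in place of 4 and 2 lower in place of 1 among cartilage genes and, among markers, 4 lower in place of 2 for head mesenchyme, 3 lower in place of 2 for crest and for cardiac muscle, 1 higher in place of 2 for ectoderm and endothelium and 0 higher in place of 1 and 7 lower in place of 6 for yolk sac. By the upper quartile, 3 progenitor genes in place of 4, 1 endothelial marker in place of 2 and 0 yolk sac markers in place of 1 were higher and 4 partner factors in place of 3 were lower, and by DESeq2 size factors 2 partner factors were higher in place of 1. No paired analysis was possible because each genotype had 1 column.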
